A study of Mus musculus with 6 samples.

Results

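Metallothioneins are small, cysteine-rich proteins that bind zinc, copper and cadmium, and zinc transporters move zinc across cell membranes. Of this system, 8 genes were followed in mouse lung, namely the metallothionein genes Mt1, Mt2 and Mt3, the exporter genes Slc30a1 and Slc30a4 and the importer genes Slc39a1, Slc39a8 and Slc39a14. They were taken as every probe whose gene symbol on the array equalled one of these names, which gave 10 probes for 8 genes among 25697 probes for 18138 gene symbols.

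The lungs came from male FVB mice at postnatal day 6 (P6), with 3 hSRY-OFF and 3 hSRY-ON mice and 1 Illumina MouseRef-8 BeadChip per mouse. The comparison asks which genes differ in the lung when the human sex-determining gene SRY is switched on throughout the body from the single-cell embryo. The study reports that hSRY-ON pups grew more slowly than littermates, lacked milk in their stomachs and had impaired lung development. It chose P6 as an age at which the growth retardation could be seen. The part of this poor condition in the differences between the lungs was not tested. Both names refer to a line with a single copy of the transgene Signalox-hSRY at the H11 locus, in which the broadly active CAG promoter drives DsRed until Cre recombinase removes it and places human SRY and EGFP under that promoter. In hSRY-ON mice the Cre came from the eggs of Ddx4-Cre mothers, and the hSRY-ON mice chosen for the arrays did not carry the Ddx4-Cre transgene themselves. In the study's methods hSRY-OFF means a mouse with the transgene not recombined. Its text also speaks of control pups, by which it means siblings lacking the transgene. For the arrays, its methods name hSRY-OFF mice, as the labels do, while its results speak of control pups and a figure legend equates the names. Which meaning holds for the array mice is not spelled out. The mice were kept on an FVB/N background, and the transgene is a single integration into 1 site.

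In background terms, zinc that enters a cell activates the transcription factor MTF-1, which binds metal response elements (MREs) in the promoters of Mt1, Mt2 and the exporter gene Slc30a1. Mt1 and Mt2 are also known to respond to glucocorticoids, to inflammatory cytokines and to oxidative stress, in lung as in liver. Proteins of the Slc30 family (ZnT) lower cytosolic zinc by moving it out of the cell or into organelles, and proteins of the Slc39 family (ZIP) raise it. Slc39a14 is known as an importer induced by interleukin-6, and Slc39a8 as an importer of zinc, manganese and cadmium that is expressed in lung.

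The promoters of the 3 metallothionein genes and of Slc30a1 are shown because MREs are known from the promoters of Mt1, Mt2 and Slc30a1, of which Mt1 and Mt2 were called, and Mt3 is their neighbour in the metallothionein cluster. Each line gives the 250 bases before the RefSeq transcription start (assembly GRCm38.p6, plus strand), and capitals mark each match to the MRE core, TGCACNC or TGCGCNC, on either strand. The windows lie at chr8:94178839-94179088 for Mt1, chr8:94172368-94172617 for Mt2, chr8:94152357-94152606 for Mt3 and chr1:191906531-191906780 for Slc30a1.
Mt1: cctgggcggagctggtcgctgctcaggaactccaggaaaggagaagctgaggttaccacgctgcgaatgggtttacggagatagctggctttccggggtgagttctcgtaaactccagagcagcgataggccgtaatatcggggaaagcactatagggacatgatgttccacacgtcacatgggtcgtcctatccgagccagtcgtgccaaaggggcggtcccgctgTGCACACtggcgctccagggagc
Mt2: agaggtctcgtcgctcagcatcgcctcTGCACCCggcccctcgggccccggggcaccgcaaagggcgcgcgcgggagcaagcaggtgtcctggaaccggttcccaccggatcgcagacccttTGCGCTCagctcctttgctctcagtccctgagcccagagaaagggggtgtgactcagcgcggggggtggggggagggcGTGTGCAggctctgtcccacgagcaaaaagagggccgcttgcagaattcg
Mt3: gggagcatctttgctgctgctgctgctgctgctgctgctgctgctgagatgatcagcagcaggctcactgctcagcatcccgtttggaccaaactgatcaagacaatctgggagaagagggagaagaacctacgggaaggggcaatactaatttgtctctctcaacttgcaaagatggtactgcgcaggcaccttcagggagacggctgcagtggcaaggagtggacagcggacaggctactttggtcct
Slc30a1: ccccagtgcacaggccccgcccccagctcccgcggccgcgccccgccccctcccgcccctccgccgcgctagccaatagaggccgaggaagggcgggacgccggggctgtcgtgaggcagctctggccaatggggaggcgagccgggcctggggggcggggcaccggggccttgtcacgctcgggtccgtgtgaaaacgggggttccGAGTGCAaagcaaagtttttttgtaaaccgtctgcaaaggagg

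The Mt2 window held 3 matches, the windows of Mt1 and Slc30a1 held 1 each, and the Mt3 window held 0. Of the windows not shown, that of Slc30a4 held 2 and that of Slc39a1 held 0, and Slc39a8 held 0 in 1 window and 1 in another. Of 32851 RefSeq windows of the same length, 21.4% held at least 1 match, so a match is a description of the letters and not a site of binding. The windows stop at the listed start and leave out what lies beyond it. MREs past that start are therefore not in these counts, and a low count does not mean that a gene has few. The promoter table used here held windows for 7 of the 8 genes, all but Slc39a14. The metallothionein genes lie next to each other on chromosome 8 in the RefSeq annotation, with 0 other genes listed between Mt2 and Mt1 and 1, Gm39227, between Mt3 and Mt2.

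Mt1 and Mt2 were both higher in hSRY-ON lungs, by 2.47-fold and 2.69-fold, the second falling to a log2 change of 0.63 without background correction, while no zinc transporter among the 8 genes passed the test. Of the 10 probes, 6 were detected on at least 3 of the 6 arrays and were tested, 1 for each of Mt1, Mt2, Mt3, Slc30a1, Slc39a1 and Slc39a8. Values are normalized log2 intensities, in which a difference of 1 is a doubling, and a probe was called at an adjusted p under 0.05 in limma over all 13841 tested probes. Of the 6, 2 were called higher and 0 lower, and at an unadjusted p under 0.05 the counts were 3 and 0. Changes were common in these lungs, since 26.9% of all tested probes were called, 13.6% higher and 13.3% lower. The median change of the 6 probes was 0.55 on the log2 scale, against -0.03 over all tested probes.

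**Figure D1:**
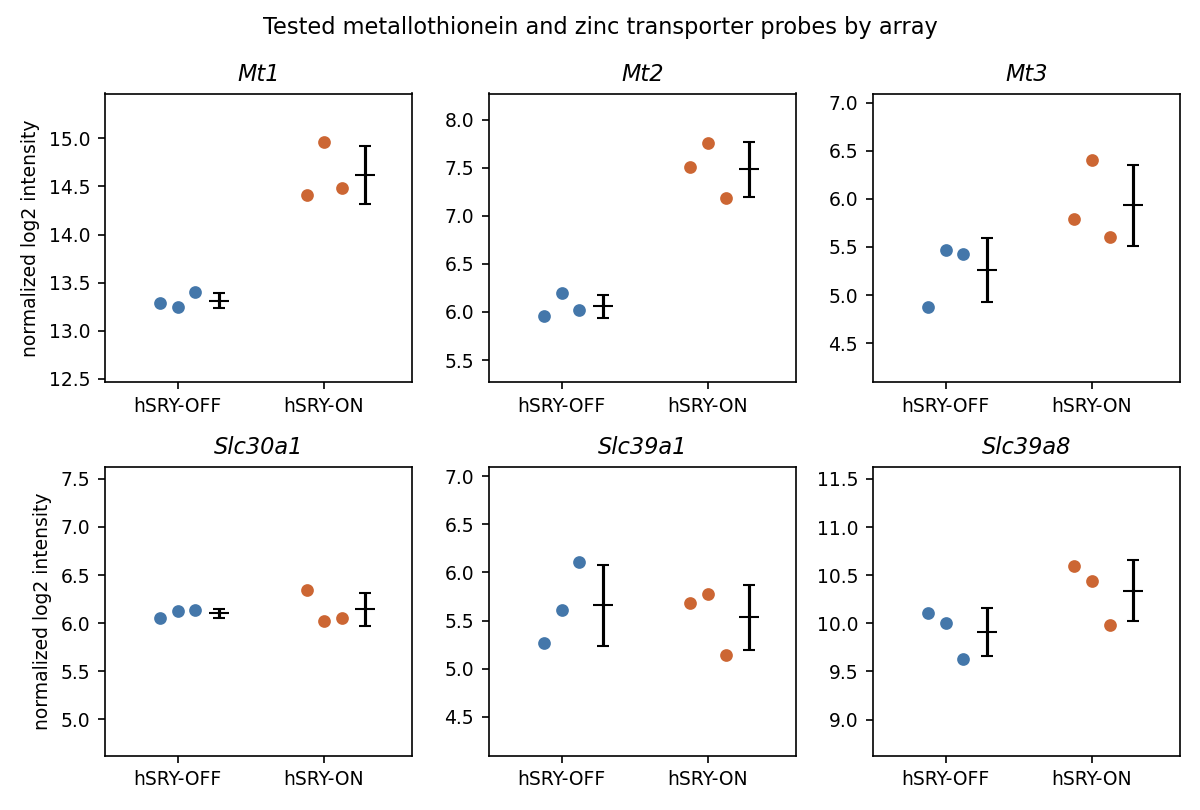
Normalized log2 intensity of each tested probe on each array, with 3 hSRY-OFF arrays in blue and 3 hSRY-ON arrays in orange in order of replicate number. Black marks give the mean and SD of a group, every panel spans the same number of log2 units, and the groups lie apart for Mt1, Mt2 and Mt3 and overlap for the 3 transporter genes.

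Mt1 encodes one of the main metallothioneins of most tissues. Its normalized log2 intensity was 13.29, 13.25 and 13.40 in hSRY-OFF replicates 1 to 3 and 14.42, 14.96 and 14.48 in hSRY-ON replicates 1 to 3. The lowest hSRY-ON lung was above the highest hSRY-OFF lung, and the hSRY-ON lungs were more spread out. The mean went from 13.31 ± 0.08 to 14.62 ± 0.30 (SD, n = 3 each), a rise of 1.31 with an SE of 0.17 (95% confidence interval 0.91 to 1.70, limma adjusted p = 0.00320). As a fold this was 2.47 (95% confidence interval 1.88 to 3.26). The deposited intensities, before any processing, were 9719, 8798 and 12087 in hSRY-OFF lungs and 21588, 32465 and 23817 in hSRY-ON lungs. The ratio of their means was 2.54, close to the normalized fold. Among all tested probes, 3.29% rose at least as much as that of Mt1.

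Mt2 encodes the metallothionein that is usually induced together with Mt1. Its normalized log2 intensity was 5.95, 6.19 and 6.03 in hSRY-OFF replicates 1 to 3 and 7.51, 7.76 and 7.19 in hSRY-ON replicates 1 to 3. The groups did not overlap, and hSRY-ON replicate 2 was the highest of the lungs for Mt2 as it was for Mt1. The mean went from 6.06 ± 0.12 to 7.48 ± 0.29 (SD, n = 3 each), a rise of 1.43 with an SE of 0.17 (95% confidence interval 1.03 to 1.83, limma adjusted p = 0.00245). The Mt2 probe was detected on all 6 arrays but lay near background, with deposited intensities of 200.8, 202.9 and 225.3 in hSRY-OFF lungs and 302.9, 326.9 and 289.6 in hSRY-ON lungs. The ratio of their means was 1.46. The size of its rise therefore depends on how background is removed, and without background correction the rise was 0.63 on the log2 scale and was still called. The probe sequences were not used here, so how far each of the probes can bind RNA of the other metallothionein genes is not known.

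Mt3 encodes the metallothionein best known from brain. Its normalized log2 intensity was 4.88, 5.47 and 5.43 in hSRY-OFF replicates 1 to 3 and 5.79, 6.40 and 5.61 in hSRY-ON replicates 1 to 3. The groups did not overlap, but the highest hSRY-OFF lung lay close below the lowest hSRY-ON lung. The difference was 0.67 with an SE of 0.25 (95% confidence interval 0.08 to 1.27) and did not pass the test (limma adjusted p = 0.0885). The probe was detected in 2 hSRY-OFF and 3 hSRY-ON lungs, so these values sit at the edge of detection, and without background correction the difference was 0.20. Groups that did not overlap were common, at 46.6% of all tested probes, 22.4% with hSRY-ON above and 24.1% with hSRY-ON below, and the 6 probes here had 3, all with hSRY-ON above.

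Of the exporters, Slc30a1 encodes ZnT1, which carries zinc out through the plasma membrane. Its normalized log2 intensity was 6.05, 6.12 and 6.14 in hSRY-OFF replicates 1 to 3 and 6.34, 6.03 and 6.06 in hSRY-ON replicates 1 to 3. Of the hSRY-ON lungs, replicate 1 lay above the hSRY-OFF lungs, replicate 2 below them and replicate 3 among them. The difference was 0.04 with an SE of 0.13 (95% confidence interval -0.27 to 0.34, limma adjusted p = 0.844), and whether it differed from the changes of Mt1 and Mt2 was not tested. The probe was detected on all 6 arrays but lay near background, with deposited intensities from 192.8 to 231.6, where changes are understated. The other exporter gene, Slc30a4, encodes ZnT4, which loads zinc into vesicles. Its probe was detected in 1 hSRY-OFF lung and in 0 hSRY-ON lungs and was not tested, and its deposited intensities ran from 156.4 to 180.3.

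Of the importers, Slc39a8 encodes ZIP8. Its normalized log2 intensity was 10.10, 9.998 and 9.63 in hSRY-OFF replicates 1 to 3 and 10.60, 10.44 and 9.982 in hSRY-ON replicates 1 to 3. The groups overlapped through hSRY-ON replicate 3, which lay just below hSRY-OFF replicate 2. The difference was 0.43 with an SE of 0.20 (95% confidence interval -0.05 to 0.91, limma adjusted p = 0.157). Without hSRY-ON replicate 3 the difference was 0.61 and was called (limma adjusted p = 0.0496), and over all 15 alternatives the adjusted p ran from 0.0496 to 0.386. A second Slc39a8 probe was detected in 0 hSRY-OFF lungs and 1 hSRY-ON lung and was not tested.

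Slc39a1 encodes ZIP1, an importer of the plasma membrane in many cell types. Its normalized log2 intensity was 5.27, 5.61 and 6.11 in hSRY-OFF replicates 1 to 3 and 5.68, 5.77 and 5.14 in hSRY-ON replicates 1 to 3. The highest and the lowest of the 6 values came from hSRY-OFF replicate 3 and hSRY-ON replicate 3, and the groups overlapped. The difference was -0.13 with an SE of 0.26 (95% confidence interval -0.73 to 0.48, limma adjusted p = 0.737), and the probe was detected in 3 hSRY-OFF and 2 hSRY-ON lungs. Slc39a14 encodes ZIP14. Both of its probes were detected on 0 arrays, with deposited intensities between 146.9 and 166.4, so no change in it was detectable with these probes. When all probes were tested without a detection filter, the 4 probes left out had changes from -0.17 to 0.45 and none was called.

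**Figure D2:**
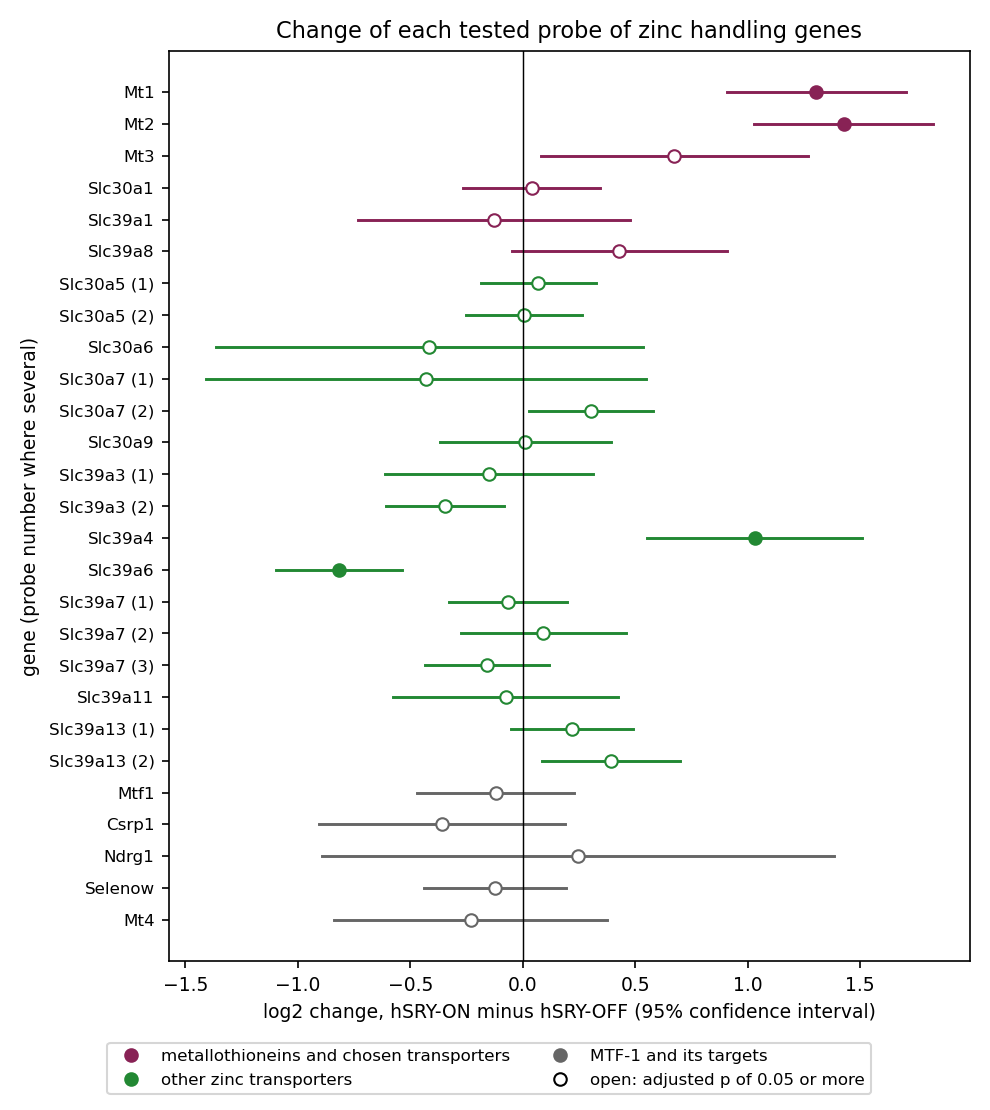
Log2 change (hSRY-ON minus hSRY-OFF) with its 95% confidence interval for each tested probe of the genes described (purple), of the other zinc transporters (green) and of MTF-1, its known targets and Mt4 (grey). Filled points passed the adjusted p threshold of 0.05, and these were Mt1, Mt2 and Slc39a4 on the right and Slc39a6 on the left.

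The other zinc transporters gave few calls in either direction. Among the remaining Slc30 genes, 7 of 8 had probes on the array and 6 probes of 4 genes were tested. In limma 0 of these 6 were called, 1 had an unadjusted p under 0.05, and their median change was 0.01. Among the remaining Slc39 genes, 9 of 11 had probes on the array, 10 probes of 6 genes were tested, 1 was called higher, 1 was called lower and the median change was -0.07. Slc39a4, which encodes ZIP4, the importer of dietary zinc in the intestine, rose from 8.53 ± 0.04 to 9.56 ± 0.40 (SD, n = 3 each), by 1.03 with an SE of 0.20 (limma adjusted p = 0.0120). Its second probe did not pass the detection filter. Slc39a6, which encodes ZIP6, fell from 9.95 ± 0.03 to 9.13 ± 0.14 (SD, n = 3 each), a change of -0.82 with an SE of 0.12 (limma adjusted p = 0.00468).

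The list made up of MTF-1, its known targets outside the 8 genes and Mt4 gave no calls. Of 6 genes, 5 were tested with 1 probe each, 0 were called in limma, 0 had an unadjusted p under 0.05, and the median change was -0.12. Mtf1 itself differed by -0.12 (limma adjusted p = 0.574), and Mt4, the metallothionein of stratified epithelium, by -0.23 (limma adjusted p = 0.533). Both were detected in 2 hSRY-OFF lungs. Gclc, which encodes a subunit of the enzyme that starts glutathione synthesis, was detected on 0 arrays.

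Genes that handle copper, which metallothioneins also bind, and iron were called in 1 direction. Of 23 tested probes for 17 genes, 13 probes for 9 genes were called higher and 0 lower, with a median change of 0.53. At an unadjusted p under 0.05 the counts were 14 and 0. The shares called over all tested probes were 13.6% higher and 13.3% lower. Of the 13 called, 1 was detected on 0 hSRY-OFF arrays and could pass the filter only by a rise. The 3 genes with the smallest p were Atp7b, a copper-exporting ATPase, with a rise of 1.65 (limma adjusted p = 0.00423), Slc31a1, the copper importer CTR1, with a rise of 0.85 (limma adjusted p = 0.00617), and Hmox1, the stress-inducible haem oxygenase, with a rise of 2.56 (limma adjusted p = 0.00895). The Hmox1 values were 7.32, 7.47 and 7.65 in hSRY-OFF replicates 1 to 3 and 11.21, 9.66 and 9.28 in hSRY-ON replicates 1 to 3. The highest lung for Hmox1 was hSRY-ON replicate 1. For Atp7b (7.35) and Slc31a1 (11.92) it was hSRY-ON replicate 2, as for Mt1 and Mt2.

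**Figure D3:**
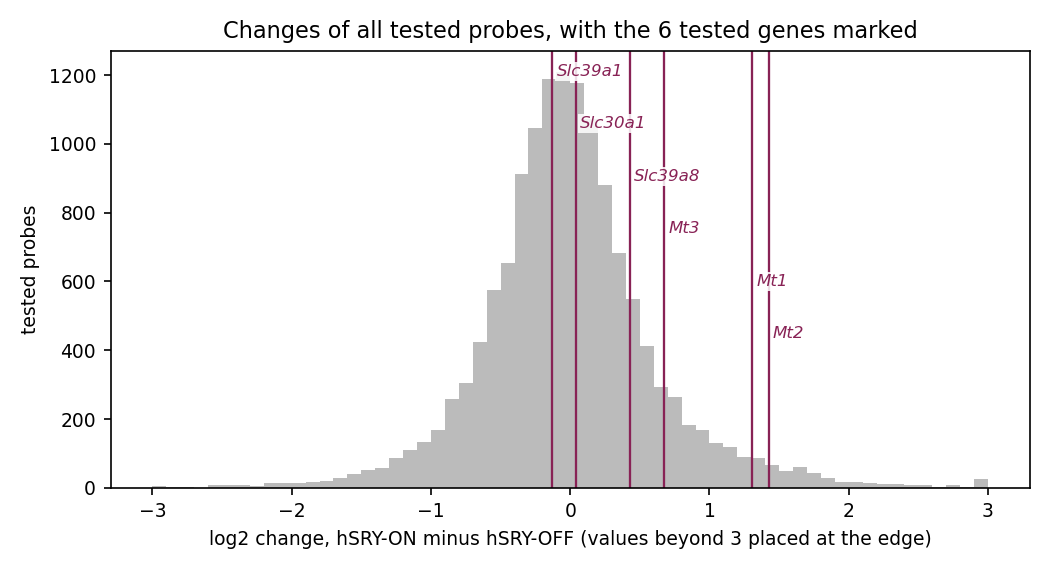
Number of tested probes by log2 change (hSRY-ON minus hSRY-OFF) in bins of 0.1, with a line at each of the 6 tested genes described. Mt1 and Mt2 lie in the right tail, Mt3 and Slc39a8 on its near side, and Slc30a1 and Slc39a1 by the middle of the distribution.

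Groups of genes that share known inducers with Mt1 and Mt2 were counted beside them. For scale, 13.6% of all tested probes were called higher and 13.3% lower. Of 12 tested probes for 8 glucocorticoid-responsive genes, 10 probes for 6 genes were called higher and 0 lower, with a median change of 1.46. The 3 with the smallest p were Fkbp5, a co-chaperone of the glucocorticoid receptor, which rose by 2.95 (limma adjusted p = 0.00203), Tsc22d3, which encodes GILZ, which rose by 1.36 (limma adjusted p = 0.00860), and the clock gene Per1, which rose by 1.70 (limma adjusted p = 0.0117). Of 15 tested probes for 10 acute-phase and interleukin-6-responsive genes, 11 probes for 8 genes were called higher and 0 lower, with a median change of 1.21. Orm1, an acute-phase plasma protein, rose by 5.08 (limma adjusted p = 4.27e-05) and was detected in 1 hSRY-OFF lung, Hp, which encodes haptoglobin, rose by 1.63 (limma adjusted p = 0.000603), and Il1rn, the interleukin-1 receptor antagonist, rose by 1.83 (limma adjusted p = 0.00146). Il6, of the acute-phase list, was detected on 0 arrays, and so was Nr3c1, the glucocorticoid receptor gene, of the glucocorticoid list. At an unadjusted p under 0.05, 11 glucocorticoid-responsive and 12 acute-phase probes were higher and 0 of either list were lower. The highest lung was hSRY-ON replicate 2 for Fkbp5 (10.90), Per1 (11.36), Hp (14.47) and Il1rn (8.33), as for Mt1 and Mt2. It was hSRY-ON replicate 1 for Tsc22d3 (13.07) and Orm1 (10.62). Whether the rises of Mt1 and Mt2 had a part in common with these lists was not tested.

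The tissue and its cell types were checked by their markers, beside shares of 13.6% called higher and 13.3% called lower over all tested probes. All 10 lung epithelium genes were detected on all 6 arrays, and the sum of their background-corrected intensities was 124269 to 127040 in hSRY-OFF lungs and 135692 to 144492 in hSRY-ON lungs, with 6 of 15 tested probes, those of Sftpb, Sftpd and Napsa, called higher and 0 lower. In bulk tissue, fewer cells of a type and less RNA per cell cannot be told apart. The same sum over 10 macrophage markers was 24803 to 26611 in hSRY-OFF lungs and 36928 to 52456 in hSRY-ON lungs, and 9 of 14 tested probes were called higher. The 5 not called were all those tested for Emr1 and Csf1r, with changes from -0.26 to 0.41. Lyz2 was the brightest of the list, with means of 14.44 in hSRY-OFF and 14.84 in hSRY-ON lungs, and weighs most in this sum. The sum of 10 neutrophil markers was 5026 to 5726 against 8964 to 34953, with 3 of 7 tested probes called higher and with Elane and Cxcr2 detected on 0 arrays. The sum of the thymocyte markers moved the other way, at 827 to 955 in hSRY-OFF lungs and 228 to 532 in hSRY-ON lungs. Of 4 tested probes, 3 were called lower, those of Cd8b1, Cd3e and Lck. Ptcra was not called (-0.26, limma adjusted p = 0.451), and Cd4, Cd8a, Rag1 and Themis were detected on 0 arrays. Hepatocyte markers summed to 138 to 173 against 297 to 818, with 4 of 5 tested probes called higher. These 4 were detected on 0 hSRY-OFF arrays and so passed the filter through the hSRY-ON arrays alone, which left a rise as the only possible call, and Alb, Ttr, Fgb, Apoc3, Tat and Cps1 were detected on 0 arrays. Cardiac muscle markers ran from 7577 to 10650 against 4584 to 9491, with 2 of 10 tested probes called higher and 3 lower. This sum mixes opposite changes. Called higher were Nppa (5.55) and Myh7 (0.98), and called lower were Myl2 (-2.59), Myl4 (-1.94) and Sln (-0.88). Erythroid markers without Hba-a1 ran from 12518 to 20775 against 12955 to 20541, with 0 of 6 tested probes called in limma and 1 at an unadjusted p under 0.05. Hba-a1, the brightest probe of every array, was set to 1 value by quantile normalization and could not be called. The part of these cell types in the rises of Mt1 and Mt2 was not tested.

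The profile of each of the 2 called genes over the 6 arrays was compared with those of all tested genes, by the root mean square difference of log2 values centred on their own mean. The genes nearest to Mt1 were Cldn23 (0.0305), Eno2 (0.0638), Srxn1 (0.0745), Mag (0.0775) and Grhl1 (0.0810), with the difference in log2 units in brackets. The genes nearest to Mt2 were Gdpd1 (0.0314), Lox (0.0686), Casc1 (0.0688), Oplah (0.0802) and Dyrk3 (0.0861). Srxn1 encodes sulfiredoxin, an enzyme that repairs oxidized peroxiredoxins, and Lox encodes lysyl oxidase, a copper enzyme that crosslinks collagen and elastin. Mt1 and Mt2 differed from each other by 0.165, more than from any of these. The genes named were picked as the nearest of all, so this does not show that Mt1 and Mt2 are unlike. The rank of the 0.165 among all tested genes was not worked out. All these values are likenesses over 6 arrays of 2 groups and carry no test.

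Arrays of a group were alike, the hSRY-OFF arrays more so than the hSRY-ON arrays. An array had 13191 to 14134 detected probes, the correlation of normalized log2 values was 0.991 to 0.993 among hSRY-OFF arrays, 0.972 to 0.980 among hSRY-ON arrays and 0.935 to 0.959 between groups, and the median SD of a tested probe was 0.13 in hSRY-OFF and 0.22 in hSRY-ON. Precision is limited throughout by the small number of arrays, and with 3 lungs against 3 an exact two-sided permutation test of a single gene cannot give a p below 0.1.

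**Figure D4:**
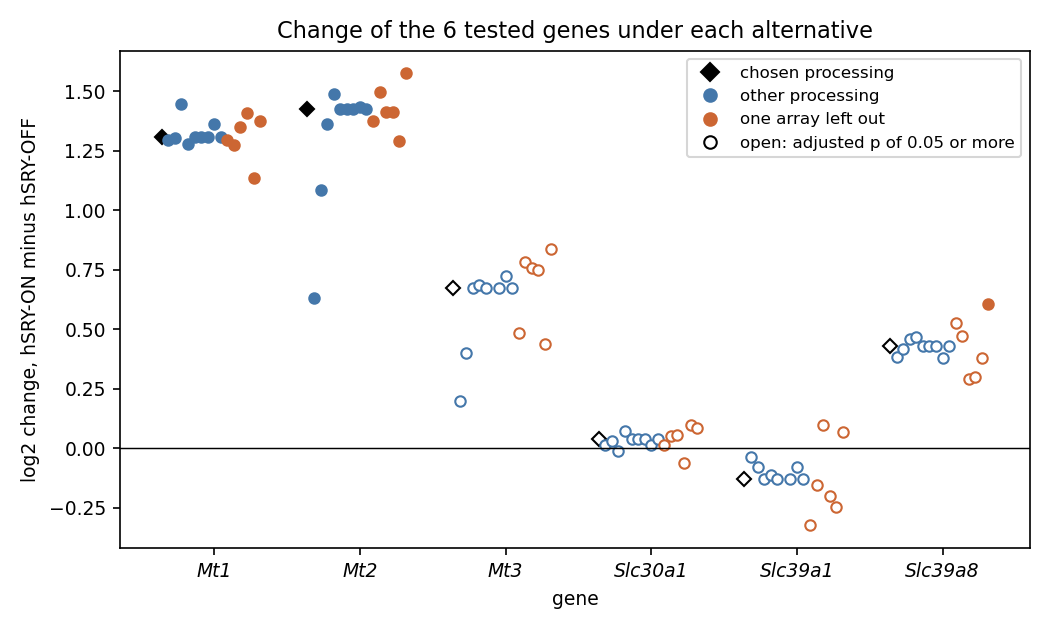
Log2 change (hSRY-ON minus hSRY-OFF) of the 6 tested genes under the chosen processing (black diamond), under other processing (blue) and with 1 array left out (orange), where filled points passed the adjusted p threshold of 0.05. Mt1 and Mt2 are filled throughout, with Mt2 lowest at 0.63 without background correction, and Slc39a8 is filled at 1 point.

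Mt1 and Mt2 were called under all 15 alternatives. The change of Mt1 ran from 1.13 to 1.44 and that of Mt2 from 0.63 to 1.58, and without hSRY-ON replicate 2, the highest lung for both, they were 1.13 and 1.29. Mt3 stayed above 0 and was not called in any of 14 alternatives, with changes from 0.20 to 0.84 and adjusted p from 0.0619 to 0.254. Slc30a1 and Slc39a1 were never called, and the sign of each changed in 2 alternatives.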

How the data were processed

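Total RNA of 6 lungs was labelled with biotin and hybridised to Illumina BeadChips, 1 per mouse. The authors deposited an intensity for each probe and array (the mean bead signal, linear, with no background correction or normalization) and a detection p-value, the share of the array's negative control probes brighter than the probe. The bead summary settings are not given in the sources used here. The study used the count-based package TCC and the submitters' processing notes name limma. Intensities are not counts, so limma 3.58.1 (R 4.3.3) replaced TCC.

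Following the neqc method, the detection p-values gave the background, an offset of 16 was added, and the quantile-normalized values were put on the log2 scale. A probe was kept where its detection p was under 0.05 on 3 or more arrays (13841 of 25697). Groups came from the labels, and lmFit and eBayes were run on them with no covariate and with Benjamini-Hochberg adjustment over all kept probes. Quantile normalization removes any shift shared by all probes, and the offset understates changes of dim probes. No slide or scan date was given, so batches could not be examined. The litter and mother of each array mouse were not given either, so they cannot be told apart from the group. No 2 arrays held identical values. Each p-value sets the group difference against the spread between mice within groups. That spread is moderated by eBayes over all kept probes and comes from these 6 mice only.

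The 8 genes, the gene lists and the tests were chosen with earlier results of these data known. Named by rule were all 8 genes, the called genes among other zinc transporters and MTF-1 targets, the 3 genes with the smallest p in each other list (the probe with the highest mean for a gene) and the 5 genes nearest in profile to Mt1 and to Mt2. Mt4, Mtf1, Csrp1, Ndrg1, Selenow, the markers named and some of the genes detected on no array were named outside that rule. Summed marker levels take, per gene, the probe of highest mean. The pipeline was tested on simulated data. The alternatives changed the background correction, the normalization and the filter, or used a stricter threshold, other variance models, a replicate block or 1 array fewer.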

Additional observations from a re-analysis of the deposited data

How the results depend on the processing

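The count of called probes among the 8 genes was 2 higher and 0 lower under every alternative but 1. Without hSRY-ON replicate 3 it was 3 higher, with Slc39a8 added at 0.61, and leaving out 1 array gave 2 to 3 higher and 0 lower. Slc30a1 changed sign with median normalization (-0.011) and without hSRY-ON replicate 1 (-0.062), with changes of -0.06 to 0.10 over the arrays left out. Slc39a1 changed sign when either group lost its replicate 3 (0.095 for hSRY-OFF and 0.067 for hSRY-ON), with changes of -0.32 to 0.10. The cause was not tested. Over all probes, 3728 were called, 1326 at an adjusted p under 0.01 and 1638 to 4468 with 1 array left out, the fewest without hSRY-OFF replicate 1 (1638), replicate 2 (1735) and replicate 3 (2227). The highest count came without hSRY-ON replicate 1. The labels give both groups replicate numbers 1 to 3, but same-numbered arrays did not deviate together (correlations of -0.11, 0.10 and -0.09), and with a replicate block 2655 probes were called, 2 of them among the 8 genes. The median change of all tested probes lay between -0.035 and -0.005 in every alternative. The probes of Mt2, Mt3, Slc30a1 and Slc39a1 lay near background. Mt3 and Slc39a1 could not be examined with the filter that required detection on all 6 arrays, because they did not pass it.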
